A study of Mus musculus with 18 samples.

Results

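Receptors for glutamate, GABA, glycine, acetylcholine, serotonin and dopamine were followed along the rostrocaudal axis of the embryonic mouse neocortex. Genes were taken by their symbol in the array's annotation: the AMPA, kainate, NMDA and delta glutamate receptor subunits, the metabotropic glutamate receptors, the GABA-A, GABA-B and glycine receptor subunits, the nicotinic and muscarinic acetylcholine receptors, and the serotonin and dopamine receptors. The rule found 71 genes on 82 probes among 21766 features that were not control spots, and used no measured value. Where a gene had several probes, the gene was represented by the probe measured on most arrays. Of the 71 genes, 64 could be tested, against 18525 of all features.

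The tissue was neocortex of MF1 mouse embryos at stage E13.5, cut into a rostral, a middle and a caudal part, with no treatment or genetic change named in the labels. Each part gave 3 pools of total RNA, extracted with Trizol, from 4 embryos in all. How the embryos were divided over the pools is not given, so a p-value here speaks of the scatter among these 9 pools, part of which can be technical. On each of 18 arrays a pool labelled with Cy3 was hybridised against a pool of another part labelled with Cy5, which put every pool on 4 arrays (2 per dye) and gave every pair of regions 6 arrays. The files hold the log2 ratio of the dyes, so they give differences between pools and no level of any gene. A pool's value below is on the log2 scale, relative to the mean of the 9 pools and to the median of its arrays. The numerator of the ratio was read as Cy5, a direction that is likely but not stated. Were it Cy3, every sign below would turn: counts above and below 0 would change places, and so would highest and lowest.

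Ionotropic receptors are ion channels built from several subunits that open when a transmitter binds, and metabotropic receptors act through G proteins. In the embryonic cortical wall GABA and glycine depolarise cells because chloride inside the cell is high, and transmitters reach progenitors and young neurons before synapses are common. Many of these subunits are known to be exchanged for others as the cortex matures.

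No receptor gene passed an adjusted p of 0.05 in any pair of regions. In rostral against caudal neocortex 0 of 64 did, where 0.0648% of all features (12 of 18525) passed. The lowest adjusted p of a receptor was 0.305 there. The lowest was 0.892 between rostral and middle pools and 0.444 between middle and caudal pools, comparisons in which 0% of all features passed. Limma's F test over the 3 regions gave 0.41 as its lowest, and 0.0108% of all features (2) passed it. At an unadjusted p under 0.05, 5 of the 64 receptors differed between the ends of the axis, or 7.81%, and the same held for 7.9% of all features. Of these 5, 2 were higher rostrally (all features 4.17%) and 3 caudally (all features 3.74%). With 1 pool left out, 5.19% to 7.5% of all features had such a p. The count of receptors was then 2 without rostral replicate 1, rostral replicate 2, caudal replicate 1 or caudal replicate 2. It was 3 without rostral replicate 3, middle replicate 2 or caudal replicate 3. For rostral against middle it was 2 of 64, or 3.12%, beside 5.25% of all features, and both were higher rostrally (all features 2.16% in that direction and 3.09% in the other). With 1 pool left out, 2.56% to 4.98% of all features had such a p in that pair. The count of receptors there was 0 without middle replicate 2 and 4 without caudal replicate 1. It was 1 without rostral replicate 1, 2 or 3 or caudal replicate 2 or 3. Between middle and caudal pools it was 3 of 64, or 4.69%, beside 4.86%, and all 3 were higher caudally (all features 1.78% in that direction and 3.08% in the other). In the F test it was 5 receptors, or 7.81%, against 6.71% of all features. The shares lay near or below those of all features in each pair of regions.

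**Figure D1:**
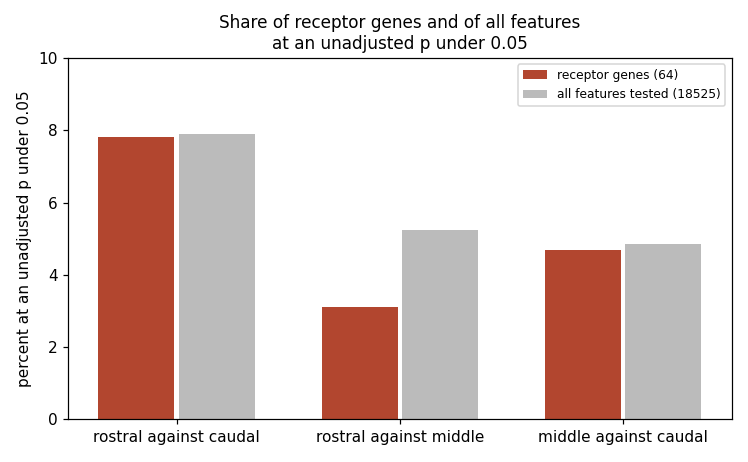
Percent of the 64 tested receptor genes (red bars) and of all 18525 tested features (grey bars) with an unadjusted limma p under 0.05, for each pair of regions. The red and grey bars stand at 7.81% and 7.9% for rostral against caudal, and the red bar is the lower in the other 2 pairs.

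The median receptor lay near the median feature. Between the ends 30 lay above 0 and 34 below, with a median difference of -0.009, beside 0.002 over all features. Rostral minus middle had a median of -0.02 (30 above, 34 below) and middle minus caudal one of -0.02 (28 above, 36 below), with 0.002 over all features in both. By pool the median receptor value ran from -0.05 in middle replicate 2 to 0.09 in middle replicate 3, a spread within 1 region. These differences are set against the median of each array. Without that centring the median of all features moved to -0.07 between the ends, 0.11 for rostral minus middle and -0.17 for middle minus caudal. The receptors moved with it, to -0.08 (17 above, 47 below), 0.08 (47 above, 17 below) and -0.19 (8 above, 56 below).

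**Figure D2:**
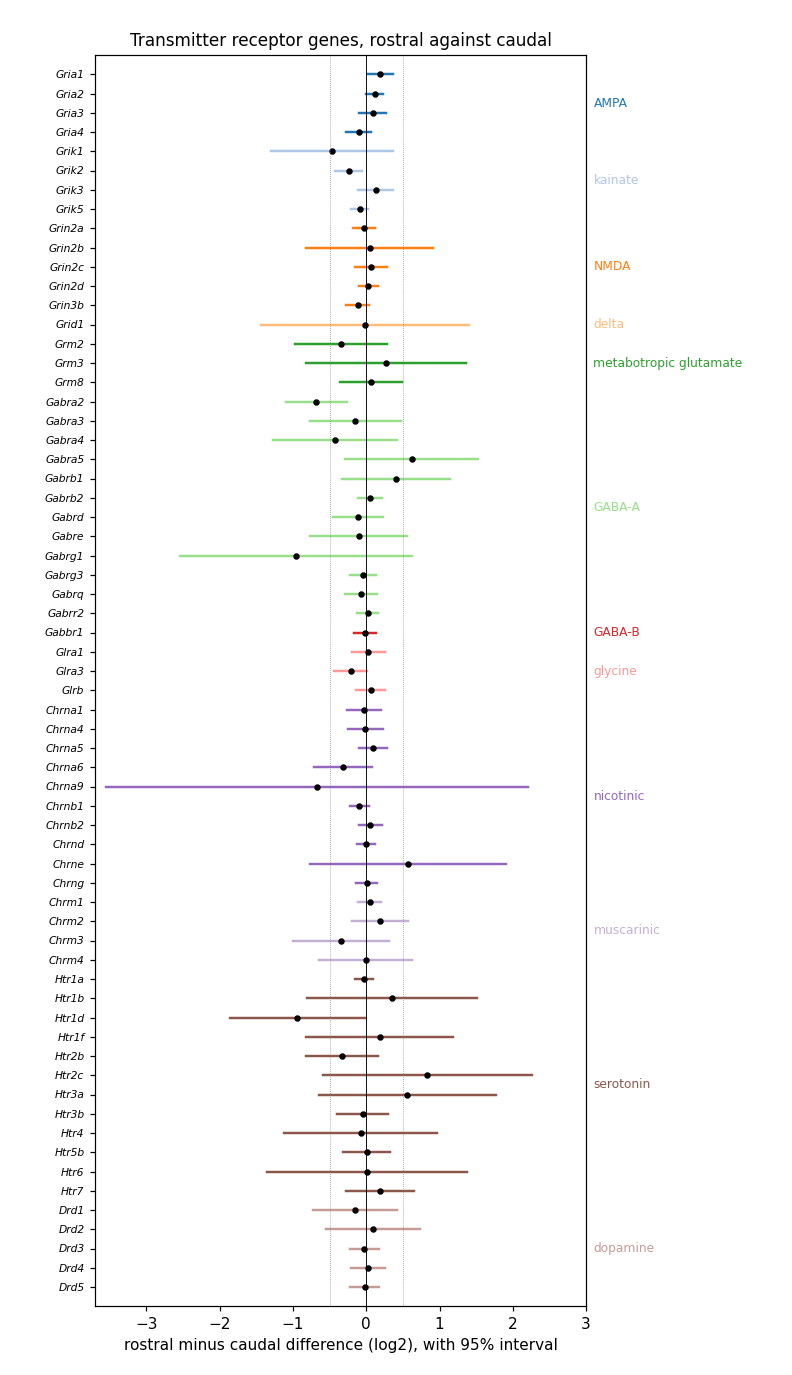
Rostral minus caudal difference on the log2 scale (x axis) for each of the 64 tested receptor genes (y axis), ordered by receptor class. Points are differences between the means of 3 pools and bars their 95% intervals, and dotted lines mark -0.5 and 0.5. The AMPA and most NMDA and nicotinic genes have short bars near 0, and most serotonin receptor genes have long ones.

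The AMPA receptors, which carry fast excitatory transmission, had 3 of 4 genes above 0 between the ends, and Gria1 and Gria2 had an unadjusted p under 0.05 there (all features 7.9%, and 4.17% with higher rostral values). For Gria1 this rests on which probe stands for the gene, since a further probe gave the opposite sign. Gria2 encodes the subunit whose edited form makes the channel nearly impermeable to calcium. Its values were 0.07, 0.11 and 0.08 in the rostral pools, -0.04, -0.07 and -0.05 in the middle pools and 0.02, -0.10 and -0.02 in the caudal pools. All rostral pools lay above all middle and all caudal pools, while middle and caudal pools overlapped. The rostral minus middle difference was 0.14 ± 0.05 (SE, n = 3 pools per region), or 1.1-fold, with a limma unadjusted p of 0.0241 and an adjusted p of 0.892. Rostral minus caudal was 0.12 ± 0.05, or 1.08-fold (limma unadjusted p = 0.0453, adjusted p = 0.616). On the 6 arrays that set a rostral against a middle pool, the ratio after removal of the dye effect was above 0 on all 6, from 0.04 to 0.31, and it was above 0 on all 6 rostral and caudal arrays too, from 0.02 to 0.20. These arrays belong to the same fit, so their signs, here and for the genes below, are no separate support. The nicotinic gene Chrng also lay above 0 on all 6 rostral and caudal arrays after removal of the dye effect. Its rostral minus caudal difference was 0.004 (limma unadjusted p = 0.949). Without centring the Gria2 difference between the ends shrank to 0.045 and that to the middle grew to 0.24.

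The Gria2 promoter is known for a binding site of REST, a repressor that keeps neuronal genes silent outside neurons, and it is shown here because Gria2 is a receptor gene named above by its values. A search for the core letters of that site, GCACC and GGACAG with any 2 bases between them, on both strands, found them in the windows of 2 receptor genes, Gria2 and Htr5a. The motif was chosen after the promoters had been looked at. The windows come from RefSeq (GRCm38.p6) and run from 250 bases before to 50 after a gene's start. The letters stood in 2 of 65 windows of 55 receptor genes and in 31 of 32851 windows of all genes, or 0.0944%. The Gria2 stretch is chr3:80802963-80803035 on the minus strand and the Htr5a stretch chr5:27841703-27841775 on the plus strand. Both are written 5′ to 3′ along the gene, with the motif in capitals. It runs from 170 to 158 bases before the start of Gria2, on the strand opposite to the gene, and from 214 to 202 bases before that of Htr5a, on the same strand.
Gria2: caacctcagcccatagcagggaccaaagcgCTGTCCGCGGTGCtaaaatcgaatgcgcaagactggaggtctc
Htr5a: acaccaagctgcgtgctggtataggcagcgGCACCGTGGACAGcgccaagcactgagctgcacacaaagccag
A match of letters is a description and not a bound site. Htr5a had values on 12 arrays but on only 1 array of a pool, so it was not tested and its regional values cannot be set beside those of Gria2. AGGTCA, which is only part of a site of COUP-TF nuclear receptors, was searched for on both strands, likewise chosen after the fact. It stood in 8 of the 65 receptor windows (12.3%), of Chrna5, Chrnb2, Grin2c, Grm8, Htr2b, Htr2c and Htr6, and in 16.3% of all windows.

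Gria1, a subunit that is trafficked to synapses with activity, had values of 0.05, 0.17 and 0.02 in the rostral pools, -0.02, 0.003 and 0.12 in the middle pools and -0.19, -0.14 and -0.01 in the caudal pools. All rostral pools lay above all caudal pools, and the middle pools overlapped both. The rostral minus caudal difference was 0.19 ± 0.07 (SE, n = 3), or 1.14-fold (limma unadjusted p = 0.0304, adjusted p = 0.533), and the 6 direct arrays all gave a positive ratio, from 0.12 to 0.36. A further probe of Gria1, also measured on 18 arrays, gave the opposite order, with -0.11, -0.12 and -0.01 in the rostral pools, -0.16, -0.08 and 0.08 in the middle pools and 0.25, 0.04 and 0.11 in the caudal pools. There all caudal pools lay above all rostral pools, and the difference was -0.21 ± 0.08 (limma unadjusted p = 0.0363, adjusted p = 0.566). The probes differed from each other in this contrast by 0.41. Over the mean of both probes the difference was -0.01, so no direction can be given for Gria1. The sequences of the probes, and hence the transcript ends or splice forms they detect, were not analysed here.

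Gria3 and Gria4, the remaining AMPA subunits, gave 0.09 ± 0.08 and -0.10 ± 0.07 between the ends (limma unadjusted p = 0.297 and 0.187). The 3 rostral pools of Gria4, at -0.05, -0.04 and -0.17, lay below its 3 middle pools, at -0.01, 0.05 and 0.16. That difference was -0.15 ± 0.07 (limma unadjusted p = 0.073). A further probe of Gria3 gave 0.02 ± 0.07 between the ends. The AMPA genes were measured closely, with residual SDs between arrays of 0.07 to 0.13 and 95% intervals inside -0.5 to 0.5 for all 4 genes in each pair of regions.

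Kainate receptors, which modulate transmitter release and neuronal excitability, had 3 of 4 genes below 0 between the ends, with a median of -0.17 and 1 unadjusted p under 0.05. Grik2, a main subunit of brain kainate receptors, had -0.11, -0.10 and -0.18 in the rostral pools, -0.12, 0.04 and 0.12 in the middle pools and 0.15, 0.02 and 0.17 in the caudal pools. All rostral pools lay below all caudal pools, and middle replicate 1 fell among the rostral pools. The difference between the ends was -0.24 ± 0.08 (SE, n = 3), or 1.18-fold (limma unadjusted p = 0.0154, adjusted p = 0.425), and the 6 direct arrays all lay below 0, from -0.50 to -0.03. Grik5, a subunit that forms channels only together with Grik1 to Grik3, had rostral pools below all middle and all caudal pools, but by little (-0.09 ± 0.05 between the ends, limma unadjusted p = 0.124). Grik1 gave -0.47 ± 0.35 and Grik3 0.13 ± 0.10, with 95% intervals of -1.30 to 0.37 and -0.11 to 0.37.

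NMDA receptors, coincidence detectors that need glutamate, a co-agonist and depolarisation to open, had no unadjusted p under 0.05 in any pair of regions. Grin2a, Grin2c and Grin2d, which bind glutamate, gave -0.03 ± 0.06, 0.06 ± 0.09 and 0.03 ± 0.06 between the ends. For the probes used, their 95% intervals, -0.18 to 0.12, -0.15 to 0.28 and -0.10 to 0.16, lay inside -0.5 to 0.5. Grin2d is a subunit known from embryonic brain, and its middle pools, at 0.05, 0.10 and 0.02, lay above its caudal pools, at -0.07, -0.03 and -0.03 (limma unadjusted p = 0.114). Grin3b, a glycine-binding subunit, gave -0.12 ± 0.07. Grin2b, the glutamate-binding subunit most associated with the embryonic cortex, was the exception in precision: middle replicate 3 stood at 0.86, the other 8 pools ranged from -0.40 to 0.45, and the difference between the ends was 0.05 ± 0.37, with a 95% interval of -0.82 to 0.91. All 5 NMDA genes lay below 0 for rostral against middle, with a median of -0.07 and no unadjusted p under 0.05. Without centring 2 of the 5 did.

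Grid1, a delta receptor of the glutamate receptor family with a role in synapse organisation, gave -0.01 ± 0.60 between the ends with a 95% interval of -1.44 to 1.41, so that even a large difference could not be seen. Among the metabotropic glutamate receptors Grm2 and Grm3, which inhibit adenylyl cyclase, gave -0.35 ± 0.27 and 0.27 ± 0.47, and Grm8, of the group found on axon terminals, 0.07 ± 0.18. For Grm3 a single pool, middle replicate 3 at -1.50, lay apart from the other 8, which ranged from -0.45 to 0.70.

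GABA-A receptors are chloride channels of 5 subunits, and their genes lie in clusters on the chromosomes. Of 12 tested genes 8 lay below 0 between the ends, with a median of -0.08, and only Gabra2 had an unadjusted p under 0.05. Gabra2 encodes an alpha subunit that is abundant in the embryonic forebrain. The probe that stood for it gave -0.53, 0.17 and -0.29 in the rostral pools, -0.15, -0.21 and -0.37 in the middle pools and 0.59, 0.29 and 0.52 in the caudal pools. All caudal pools lay above every rostral and middle pool, and rostral and middle pools overlapped. Middle minus caudal was -0.71 ± 0.18 (SE, n = 3), or 1.64-fold (limma unadjusted p = 0.00473, adjusted p = 0.555), and rostral minus caudal -0.68 ± 0.18, or 1.61-fold (limma unadjusted p = 0.00587, adjusted p = 0.305). The ratio was below 0 on all 6 rostral and caudal arrays, from -1.61 to -0.27, and on all 6 middle and caudal arrays, from -1.05 to -0.18.

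A further Gabra2 probe did not share this pattern. It gave 0.05, 0.18 and 0.04 in the rostral pools, -0.13, -0.02 and 0.25 in the middle pools and -0.07, -0.05 and -0.24 in the caudal pools, and its rostral pools lay above all its caudal pools (0.21 ± 0.11, limma unadjusted p = 0.091). Between the ends the probes differed by -0.89. Over the mean of both probes the rostral minus caudal difference was -0.24 and the middle minus caudal difference -0.28. Gabra2 and Gria1 were thus the named receptors with several tested probes, and in both the probes disagreed in sign.

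**Figure D3:**
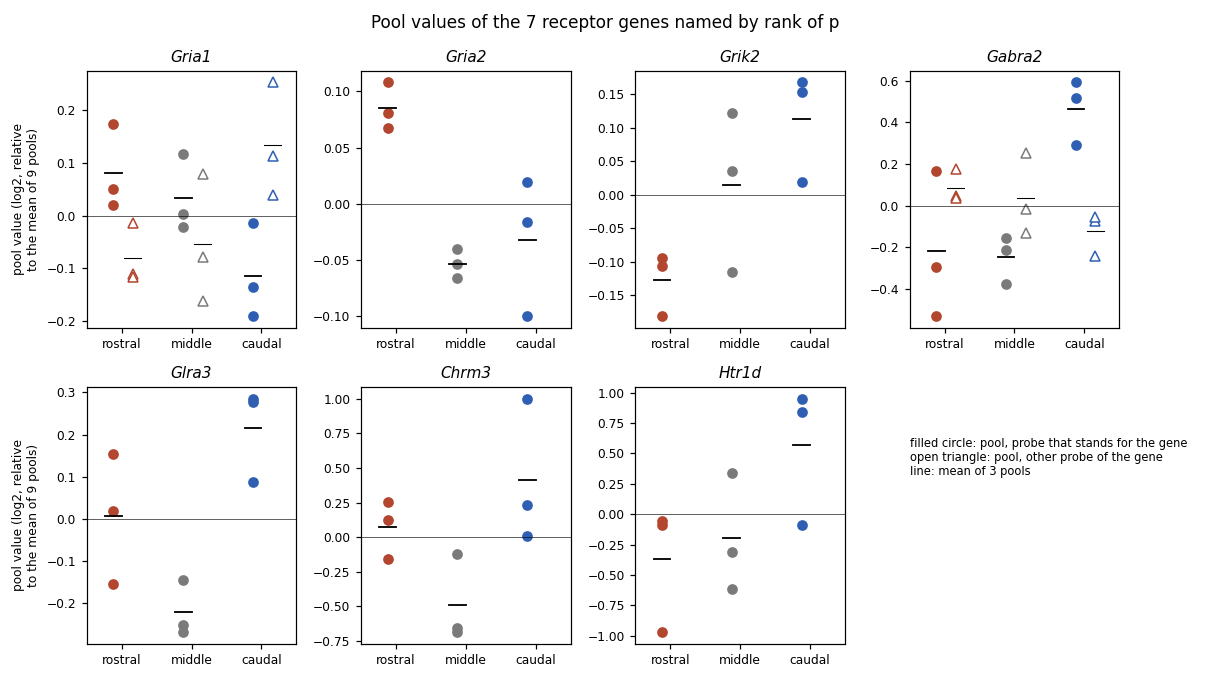
Pool values on the log2 scale relative to the mean of 9 pools (y axis, a scale of its own in each panel) by region (x axis) for Gria1, Gria2, Grik2, Gabra2, Glra3, Chrm3 and Htr1d. Filled circles are pools measured by the probe that stands for the gene, open triangles the same pools measured by a further probe of Gria1 and Gabra2, and lines are means of 3 pools. The triangles run opposite to the circles in Gria1 and Gabra2.

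The genes that neighbour Gabra2 on chromosome 5 were noisier. Gabrg1, the next gene, and Gabra4, with 1 protein-coding gene between, gave -0.96 ± 0.68 and -0.43 ± 0.36 between the ends, and Gabrb1, next to Gabra4, 0.41 ± 0.31. These genes encode a gamma, an alpha and a beta subunit, and none had an unadjusted p under 0.05 (limma, 0.198, 0.269 and 0.234). On chromosome 7 Gabra5, an alpha subunit of embryonic cortex and hippocampus, gave 0.62 ± 0.39, and its neighbour Gabrg3 -0.04 ± 0.08. On the X chromosome Gabre, Gabra3 and Gabrq, where 1 protein-coding gene separates Gabre from Gabra3, gave -0.10 ± 0.28, -0.15 ± 0.26 and -0.07 ± 0.09. Of these, Gabra3 is the alpha subunit best known from the embryonic cortex, and its 95% interval was -0.77 to 0.47. Gabrd, which marks receptors outside synapses, gave -0.12 ± 0.14 and the rho subunit gene Gabrr2 0.02 ± 0.06.

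Gabrb2, a beta subunit, was measured at 0.05 ± 0.07 between the ends by the probe that stood for it (17 arrays), and at 0.74 ± 0.28 by another with values on 15 arrays (limma unadjusted p = 0.0314, adjusted p = 0.538). The latter gave 0.55, 0.22 and 0.27 in the rostral pools, -0.18, 0.19 and 0.15 in the middle pools and -0.51, -0.92 and 0.24 in the caudal pools, so that caudal replicate 3 stood with the rostral pools. Gabbr1, the ligand-binding subunit of the metabotropic GABA-B receptor, gave -0.02 ± 0.06, with a 95% interval of -0.17 to 0.13.

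Glycine receptors, like GABA-A receptors, are chloride channels, and Glra3, an alpha subunit, had the lowest p of all receptors. Its values were -0.15, 0.15 and 0.02 in the rostral pools, -0.27, -0.25 and -0.15 in the middle pools and 0.09, 0.28 and 0.28 in the caudal pools. The middle pools lay below all caudal pools and below rostral replicates 2 and 3, and middle and rostral pools overlapped by a narrow margin. Middle minus caudal was -0.44 ± 0.10 (SE, n = 3), or 1.35-fold (limma unadjusted p = 0.00225, adjusted p = 0.444), with all 6 direct arrays below 0 after removal of the dye effect of -0.28, from -1.05 to -0.07. With that effect kept 5 of the 6 lay below 0 and 1 above. Rostral minus middle was 0.23 ± 0.10 (limma unadjusted p = 0.0465, adjusted p = 0.938), and this difference was 0.13 without caudal replicate 3. The lowest mean of Glra3 was thus that of the middle pools. Glra1, the alpha subunit of the mature spinal cord, and Glrb, the subunit that anchors glycine receptors at synapses, gave 0.09 ± 0.10 and -0.03 ± 0.09 for middle minus caudal.

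Nicotinic acetylcholine receptors are cation channels, and 10 of 13 genes could be tested. None had an unadjusted p under 0.05 in any pair of regions, and in each pair 8 of the 10 had a 95% interval inside -1 to 1. Of all 18525 features, 14557 had such an interval between the ends, 14727 in rostral minus middle and 14600 in middle minus caudal. The nicotinic share thus lay near that of all features. Chrna4 and Chrnb2, which form the main nicotinic receptor of the brain, gave -0.01 ± 0.10 and 0.05 ± 0.07 between the ends, and the accessory subunit gene Chrna5 0.09 ± 0.08. The subunits of the muscle receptor gave -0.03 ± 0.10 for Chrna1, -0.09 ± 0.06 for Chrnb1, -0.007 ± 0.05 for Chrnd and 0.004 ± 0.06 for the fetal subunit gene Chrng. Chrne, the adult counterpart of Chrng, gave 0.57 ± 0.57. Chrna6, known from dopamine neurons, gave -0.32 ± 0.17 (limma unadjusted p = 0.1), and Chrna9, known from hair cells, -0.67 ± 1.23. Chrna9 was the noisiest receptor, with pools from -2.08 to 1.64.

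Muscarinic receptors couple to Gq (Chrm1 and Chrm3) or to Gi (Chrm2 and Chrm4). Chrm3 had 0.12, -0.16 and 0.25 in the rostral pools, -0.65, -0.12 and -0.69 in the middle pools and 0.007, 0.23 and 0.999 in the caudal pools. All middle pools lay below all caudal pools, by a narrow margin, and middle replicate 2 stood near rostral replicate 2. The middle minus caudal difference was -0.90 ± 0.28 (SE, n = 3), or 1.86-fold (limma unadjusted p = 0.0138, adjusted p = 0.739). All 6 direct arrays lay below 0, but 1 of them gave -4.94 and the highest -0.32, and the residual SD between arrays was 1.92. The difference was -0.36 without caudal replicate 3, -0.52 without middle replicate 1, and -0.04 without the 2 arrays that held most missing values, 1 of which gave the extreme ratio. Chrm1 gave 0.04 ± 0.07 for the same pair, with 0.35 ± 0.12 for a further probe (limma unadjusted p = 0.024, adjusted p = 0.898), Chrm2 0.26 ± 0.16 and Chrm4 0.32 ± 0.27.

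Serotonin receptors were the least precisely measured of the large classes, and 12 of 14 genes could be tested. Htr1d, a Gi-coupled receptor of axons, gave -0.09, -0.97 and -0.05 in the rostral pools, -0.31, -0.62 and 0.34 in the middle pools and 0.95, 0.84 and -0.09 in the caudal pools. Caudal replicates 1 and 2 were high, caudal replicate 3 stood with the rostral pools, and rostral replicate 2 was the lowest of all. The difference between the ends was -0.94 ± 0.39 (SE, n = 3), or 1.92-fold (limma unadjusted p = 0.047, adjusted p = 0.624), and all 6 direct arrays lay below 0 after removal of the dye effect, from -1.50 to -0.62. That dye effect was 0.95, as large as the difference, and with it kept 4 of the 6 arrays lay below 0 and 2 above, from -2.40 to 0.34. Among the other Gi-coupled receptors, Htr1a was measured closely at -0.03 ± 0.05, while Htr1b and Htr1f gave 0.35 ± 0.49 and 0.18 ± 0.43. Htr1b is the serotonin receptor known from thalamocortical axons, and its pools ranged from -1.15 to 0.65.

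The Gq-coupled genes Htr2b and Htr2c gave -0.33 ± 0.21 and 0.83 ± 0.61 between the ends. Htr3a and Htr3b encode the only ion channel among the serotonin receptors and gave 0.56 ± 0.51 and -0.05 ± 0.15. Htr3a is a marker of a class of cortical interneurons, and its 95% interval of -0.64 to 1.77 leaves its order between the ends unresolved. For the Gs-coupled genes Htr4, Htr6 and Htr7 the differences were -0.07 ± 0.44, 0.009 ± 0.58 and 0.19 ± 0.20, and for Htr5b 0.006 ± 0.14. Htr6, which has been studied in neuronal migration, had a 95% interval of -1.35 to 1.37.

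Dopamine receptors showed no unadjusted p under 0.05 with the probes that stood for them. The Gs-coupled Drd1 and Drd5 gave -0.15 ± 0.24 and -0.02 ± 0.09 between the ends, and the Gi-coupled Drd2, Drd3 and Drd4 0.09 ± 0.27, -0.03 ± 0.08 and 0.02 ± 0.10. Drd1 had 3 probes: the closest measured, with a residual SD between arrays of 0.11, gave -0.18 ± 0.07 for rostral minus middle (limma unadjusted p = 0.0296), and the others gave -0.12 ± 0.24 and 0.15 ± 0.29.

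The receptors differed in how closely they were measured. The residual SD between arrays ran from 0.05 to 2.16 over the 64 receptors, with a median of 0.31 beside 0.26 over all features. It lay under that of the median feature in 30 receptors, among them all 4 AMPA, 4 of 5 NMDA and 8 of 10 nicotinic genes, but in 2 of 12 serotonin, 4 of 12 GABA-A and 0 of 3 metabotropic glutamate receptor genes. Between the ends, 35 of 64 receptors (54.7%) had a 95% interval inside -0.5 to 0.5, beside 57.6% of all features, with 3 of 12 serotonin and 5 of 12 GABA-A receptor genes among them. The intervals of the remaining receptors reached past 0.5 in at least 1 direction. No signal intensities were used here, so it was not tested whether the widely scattered receptors are the dimmest.

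**Figure D4:**
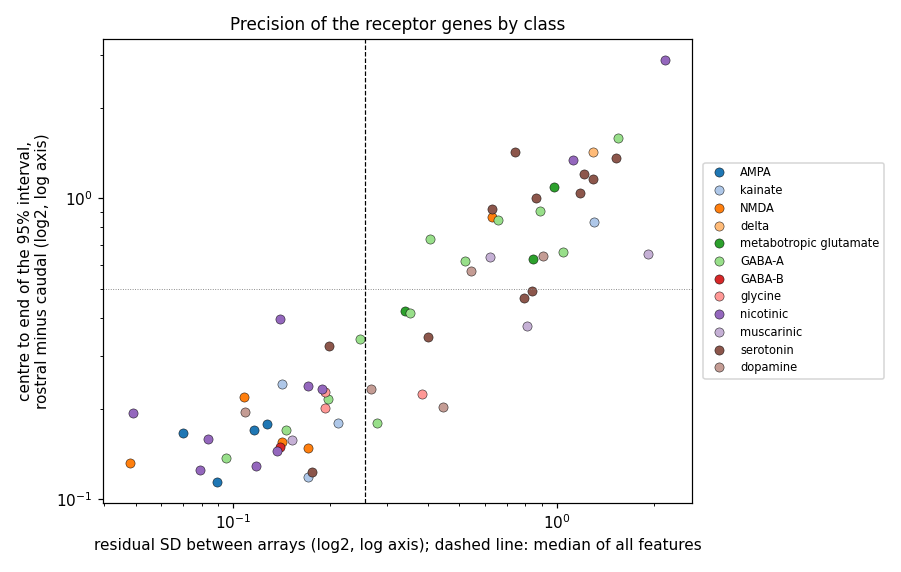
Residual SD between arrays (x axis, log2 units on a log axis) and distance from centre to end of the 95% interval of the rostral minus caudal difference (y axis, log2 units on a log axis) for the 64 tested receptor genes, coloured by class. The dashed line is the median SD of all features, 0.26, and the dotted line a distance of 0.5. AMPA genes sit at the lower left, and serotonin receptor genes spread to the upper right.

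Pools of a pair of regions that did not overlap were about as frequent among receptors as among all features. Rostral and caudal pools did not overlap in 6 of 64 genes, or 9.38%, beside 12.1% of all features. Of these, 2 had higher rostral values (Gria1 and Gria2, all features 6.22%) and 4 higher caudal values (Gabra2, Grik2, Grik5 and Grin3b, all features 5.89%). For rostral against middle there were 7, or 10.9%, beside 12.8%: 1 with higher rostral values (Gria2, all features 5.17%) and 6 with higher middle values (Gria4, Grik5, Glra1, Htr1a, Drd3 and Drd5, all features 7.66%). For middle against caudal there were 5, or 7.81%, beside 10.6%: 2 with higher middle values (Grin2d and Htr1a, all features 6.18%) and 3 with higher caudal values (Gabra2, Glra3 and Chrm3, all features 4.38%). The highest regional mean was rostral in 19 receptors, middle in 21 and caudal in 24, or 29.7%, 32.8% and 37.5%, beside 34.6%, 31.6% and 33.8% of all features. The lowest mean, which would be the highest were the ratio turned, was rostral in 23, middle in 23 and caudal in 18, or 35.9%, 35.9% and 28.1%, beside 33.5%, 31.6% and 34.9%. In 20 receptors the middle region had an intermediate mean, or 31.2%, beside 36.8% of all features.

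Of the 71 genes 7 had too few values to be tested, or 9.86%, beside 14.9% of all features. Gabra6, the alpha subunit of cerebellar granule cells, had values on 7 arrays, and Gabrr1, a rho subunit of the retina, on 9. The nicotinic genes were Chrna2 (11 arrays), Chrna7, which forms channels on its own (9), and Chrnb3 (9), and the serotonin receptor genes Htr2a (8) and Htr5a (12). Full values on 18 arrays were present for 45 of 71 receptors (63.4%), beside 57.8% of all features. A receptor gene was represented by its probe with most values, while all features count every probe. Both comparisons are therefore tilted towards better coverage of the receptors. By probe, 73 of the 82 receptor probes could be tested.

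Genes that work with the receptors gave no call either. The lists of these genes were chosen by function, with earlier results of these data known, and 0 genes of each passed an adjusted p of 0.05 in any pair of regions. Auxiliary and anchoring proteins of AMPA and kainate receptors (18 of 23 tested) had 6 genes above 0 and 12 below between the ends, with a median of -0.03 and 1 unadjusted p under 0.05. Postsynaptic scaffold genes (16 of 25) had 6 above and 10 below, with a median of -0.02 and 1 such gene. Genes of transmitter synthesis and transport (21 of 33) had 17 above and 4 below, with a median of 0.05, and 2 such genes, 1 in each direction. Of 6 chloride transporters that set whether GABA excites or inhibits, 5 were tested, with a median of -0.03, 0 such genes and every 95% interval inside -0.5 to 0.5. G proteins with their regulators and effectors (40 of 47) had 17 above and 23 below, with a median of -0.04 and 2 such genes, all with higher caudal values. In the other pairs of regions the G protein list had 4 such genes each (10%), the scaffold and the synthesis and transport lists 1 each, and the remaining lists 0. All features gave 7.9% between the ends, 5.25% for rostral minus middle and 4.86% for middle minus caudal. The median over all features was 0.002.

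Markers of the cells that a piece of neocortex can hold were followed beside the receptors, with the same background of 7.9% between the ends. Ratios give no level, so it could not be seen whether a marker is present or absent. For genes of the ventral telencephalon and of GABA neurons (11 of 15 tested) the median between the ends was 0.008, with 1 unadjusted p under 0.05, and pan-neuronal genes (13 of 14) had a median of -0.03 with 2. Meningeal genes (7 of 8) all lay below 0, with a median of -0.27 and 4 unadjusted p under 0.05. By pool their medians were 0.004, -0.12 and -0.14 in the rostral, -0.002, -0.09 and 0.05 in the middle and 0.18, 0.01 and 0.15 in the caudal pools. Red blood cell genes (4 of 5) had 1 gene above 0 and 3 below, with a median of -0.33 and 2 unadjusted p under 0.05. Their median was -0.28 for rostral minus middle and -0.008 for middle minus caudal. Radial glia genes (9 of 9) had a median of 0.02 with 3, and among them Vim, their intermediate filament gene, was the 1 gene of all lists that passed, at a limma adjusted p of 0.0389, lower in rostral pools. Dorsal cortex genes (8 of 9) had 3 unadjusted p under 0.05, 1 higher rostrally and 2 caudally, with a median of 0.003, and Cajal-Retzius cell genes (6 of 7) 1, with a median of 0.003. Genes of the diencephalon (5 of 6), endothelium (6 of 6), microglia (3 of 5) and choroid plexus (2 of 4) had 0, with medians of 0.06, -0.08, -0.08 and 0.18. The medians of meningeal and red blood cell genes between the ends thus lay on the caudal side, as did Grik2 and Htr1d. So did the probe that stood for Gabra2, while its further probe lay on the rostral side. The part of meningeal and red blood cells in these differences was not tested. In RNA from whole tissue, fewer cells of a type and less RNA per cell cannot be told apart.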

How the data were processed

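The values were 1 log2 ratio per probe and array, deposited by the authors for 21998 spots. That the logarithm has base 2 was read from the cap of the values at 16.61. The sources used here do not name the scanner, the background correction, the normalization or which dye was the numerator. Control spots (232) were dropped, 1477 capped ratios were set to missing, and each array was centred on its median (-0.09 to 0.61 before). Arrays lacked 1073 to 3681 values, capped ratios included, and their number limits the precision. To be tested, a feature needed at least 12 arrays with a value, 2 or more of them for each pool.

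Pool values came from least squares over the arrays with a dye term. The 9 pool values were then fitted with region as factor in limma 3.58.1 (lmFit and eBayes, R 4.3.3, 6 residual and 1.26 prior degrees of freedom). Tests were two-sided, with Benjamini-Hochberg adjustment across the 18525 features. The procedure was tested on simulated data. All 71 gene IDs were found in the reference table, and 0 symbols changed.

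Named with all pool values were, per pair of regions and direction, up to 4 receptors with the lowest unadjusted p under 0.05. Further probes were given for them, and the other receptors by class. Genes outside the receptor list were named only where they passed. The members and lists were chosen with earlier results of these data known. The alternatives tried were no centring, capped ratios kept, no filter, complete arrays only, no dye term, arrays as samples, a replicate block, the mean over probes, and each pool left out. Turning the direction of the ratio turns every sign and swaps the counts above and below 0, and leaves p-values and counts in either direction as they are. The 3 pools of a region are too few for a check of single outlying pools.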

Additional observations from a re-analysis of the deposited data

How the results depend on the processing

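No receptor passed in 17 of 18 alternatives in any test. The exception took arrays instead of pools as samples, which ignores that arrays share pools. There 4 receptors passed for rostral against caudal (all features 7.15%), 2 for rostral against middle (3.79%), 2 for middle against caudal (2.7%) and 3 in the F test (8.05%), and 9, 9 and 6 had an unadjusted p under 0.05 (all features 18.3%, 15.3% and 13.4%). The unadjusted count for rostral against caudal was 3 with the mean over all probes of a gene and 3 without the 2 arrays with most missing values, an alternative chosen after seeing the data. With each pool left out in turn it ran from 2 to 6 (all features 5.19% to 7.5%). For rostral against middle it ran from 0 to 4 (2.56% to 4.98%) and for middle against caudal from 2 to 4 (3.06% to 4.85%). In these fits 0 receptors passed, beside 0% to 0.0216% of all features for rostral against caudal. A pool left out takes 4 arrays with it. With the replicate block the count for rostral against middle was 1. Deviations of pools of the same number correlated at -0.43 to -0.06 over features (9 pairs), against -0.29 to 0.47 for other pairs (18). No array joined pools of the same number, while the other pairs shared arrays. These correlations therefore cannot show whether pools pair by number. Gria1 reversed to -0.01 with the mean over all probes; its probes disagree. All other named differences kept their sign in every alternative that could be fitted. No alternative used a further probe alone. That of Gabra2 had the opposite sign, with 0.21 between the ends and 0.16 for middle minus caudal. Htr1d and Chrm3 lack values on some arrays and gave none among features complete on 18 arrays, where 45 receptors could be tested. Without the filter 67 could. Gabra2 had an unadjusted p under 0.05 between the ends in 17 of 18 alternatives, Grik2 in 16, Gria1 in 11, Gria2 in 7 and Htr1d in 8 of 17. Between rostral and middle Gria2 and Glra3 had one in 10 of 18 each, and between middle and caudal Glra3 and Gabra2 in 18 and Chrm3 in 10 of 17.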
